A study of Mus musculus with 6 samples.

Results

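The clustered histone genes are the genes of the linker histone H1 and of the core histones H2A, H2B, H3 and H4 that lie side by side in histone gene clusters. They were taken here as the probe sets whose platform gene symbol was H1f1 to H1f5, or H2ac, H2bc, H3c or H4c with a number, or a former name of the Hist1h to Hist4h kind. The rule found 47 genes among the 18784 genes tested, each with 1 probe set: 5 H1, 10 H2A, 13 H2B, 10 H3 and 9 H4 genes. By former name, 40 belonged to the Hist1 cluster on mouse chromosome 13 and 7 to the Hist2 cluster on chromosome 3. The members were matched by name and not by measured values, but the set was chosen with earlier results of these data known.

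Expression was measured on Affymetrix arrays in mouse lymphoma cells with the labelled genotype Arf-/-Eu-myc/Bcl-2. Such cells lack the tumour suppressor Arf and carry Eu-myc, in which an immunoglobulin enhancer drives Myc in B cells, and Bcl-2. Both groups shared this genotype and were kept in culture on irradiated Arf-/- mouse embryonic fibroblasts. They differed in the short hairpin RNA that had been transduced: Dhx9.1241 (3 arrays), named for the DExH-box helicase gene Dhx9, or the control Rluc.713 (3 arrays), named for Renilla luciferase. No drug treatment, clone or animal age is given in the labels for these arrays. Nothing says whether arrays of a group came from separate cultures, so the p-values reflect only how far these arrays vary, which can be technical variation, and 3 arrays in each group limit the precision.

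Core histones form the protein spool on which DNA is wound in a nucleosome, and H1 binds the linker DNA that enters and leaves it. Most clustered histone genes have no introns and are transcribed mainly in S phase, when new DNA needs packaging. Their main mRNAs end in a stem-loop, bound by the protein SLBP, in place of a poly(A) tail. Some also give polyadenylated transcripts, as has been described in human differentiated cells. Which members do so in these lymphoma cells was not tested. The labels name a 3′ in vitro transcription kit, a kind of labelling that starts from oligo(dT). A level given here is therefore a signal from RNA that such priming could reach, not the amount of all histone mRNA. Where a probe set is called bright or dim, its signal is meant, which says nothing of how much RNA 1 gene makes against another. Many members are near-identical in their coding sequence, and whether a probe set reads 1 of them alone was not tested, so each member's value is uncertain in that respect.

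Of the 47 genes, 5 were lower and 1 was higher in Dhx9.1241 by limma's test, at a threshold of 0.05 on the p-value after Benjamini-Hochberg adjustment across the whole table. Genes past it are said to be called. The H3 genes H3c15 and H3c14, the linker histone gene H1f2, the H2B gene H2bc21 and the H2A gene H2ac6 fell, and H2ac1, which encodes the testis H2A variant TH2A, rose. Over all genes 3.14% were called, 1.07% lower and 2.07% higher, against 12.8% of the clustered histone genes, 10.6% lower and 2.13% higher. The other 41 members were not called. The median log2 change of the 47 was -0.03, beside 0.01 over all genes, and lay between -0.06 and -0.01 in the fits without 1 array.

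The promoters of the called members are shown because these genes moved together or apart from their neighbours. Each run is RefSeq sequence of GRCm38.p6, 5′ to 3′ along the gene's strand, from 250 bases before to 50 bases after the annotated start. Capitals mark a match, on either strand, to the CCAAT box (letters CCAAT), the TATA box (letters TATAAA) or the octamer motif (letters ATTTGCAT). The CCAAT box is the usual site of the factor NF-Y and the octamer that of OCT factors. No match overlapped another in these windows. H2bc21 has no entry in the table of promoters.
H3c15 (chr3:96239078-96239377, minus strand): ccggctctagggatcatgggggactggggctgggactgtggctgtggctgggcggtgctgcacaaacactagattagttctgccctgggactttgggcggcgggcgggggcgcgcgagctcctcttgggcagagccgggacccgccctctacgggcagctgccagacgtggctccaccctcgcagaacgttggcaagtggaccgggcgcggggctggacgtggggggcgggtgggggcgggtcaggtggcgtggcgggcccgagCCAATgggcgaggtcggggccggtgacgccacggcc
H3c14 (chr3:96246435-96246734, plus strand): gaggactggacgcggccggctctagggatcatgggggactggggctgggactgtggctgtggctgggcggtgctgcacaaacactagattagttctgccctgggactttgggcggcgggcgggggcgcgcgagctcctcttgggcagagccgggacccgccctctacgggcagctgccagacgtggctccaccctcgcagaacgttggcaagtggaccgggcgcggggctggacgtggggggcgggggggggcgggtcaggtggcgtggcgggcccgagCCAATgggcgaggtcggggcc
H1f2 (chr13:23738557-23738856, plus strand): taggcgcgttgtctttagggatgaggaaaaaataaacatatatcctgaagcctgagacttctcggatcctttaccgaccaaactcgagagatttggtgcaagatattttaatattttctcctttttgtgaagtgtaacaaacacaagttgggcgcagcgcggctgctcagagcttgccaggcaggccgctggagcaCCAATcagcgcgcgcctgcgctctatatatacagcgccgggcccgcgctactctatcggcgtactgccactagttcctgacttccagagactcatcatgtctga
H2ac6 (chr13:23683910-23684209, minus strand): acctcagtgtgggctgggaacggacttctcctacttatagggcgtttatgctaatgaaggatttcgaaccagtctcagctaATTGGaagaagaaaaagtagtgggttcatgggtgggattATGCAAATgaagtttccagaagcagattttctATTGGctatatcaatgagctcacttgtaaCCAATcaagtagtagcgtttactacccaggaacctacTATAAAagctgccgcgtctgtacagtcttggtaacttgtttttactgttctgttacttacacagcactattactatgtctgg
H2ac1 (chr13:23934187-23934486, plus strand): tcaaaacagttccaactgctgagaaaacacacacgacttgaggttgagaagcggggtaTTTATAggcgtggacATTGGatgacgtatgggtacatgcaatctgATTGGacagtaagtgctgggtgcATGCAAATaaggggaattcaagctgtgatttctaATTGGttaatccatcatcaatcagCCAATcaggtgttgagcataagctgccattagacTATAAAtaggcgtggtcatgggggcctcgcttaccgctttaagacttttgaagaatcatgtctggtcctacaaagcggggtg

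The windows of H3c15 and H3c14 are copies of each other: shifted by 15 bases, they shared 284 of 285 bases. Both held 1 CCAAT and neither held TATAAA or the octamer. That match lay after the annotated start, by 14 bases in H3c15 and 29 bases in H3c14, and whether it acts as a promoter element was not tested. G and C made up 72.7% of the bases of both windows, against a median of 45% in the windows of members and 52.7% in all windows. The H1f2 window held 1 CCAAT. The H2ac6 window held 3 CCAAT, 1 TATAAA and 1 octamer, and the H2ac1 window 4, 2 and 1. All matches in the H1f2, H2ac6 and H2ac1 windows lay before the annotated start. A promoter window was found for 42 of the 47 members, with 43 windows in all. CCAAT was in 88.4% of them, TATAAA in 60.5% and the octamer in 25.6%, against 37.4%, 13.6% and 1.74% of all 32851 windows of this length. The octamer was in 5 of 10 H2A and 6 of 12 H2B windows and in none of the H1, H3 or H4 windows. CCAAT was in every H1, H2A, H2B and H3 window but in 3 of 8 H4 windows. Both motifs thus occurred in members that were lower, higher and not called.

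H3c15 had levels of 8.41, 8.13 and 8.65 on the log2 scale on the Dhx9.1241 arrays, against 9.17, 9.57 and 9.37 on the Rluc.713 arrays. The highest Dhx9.1241 array lay below the lowest Rluc.713 array. The log2 change was -0.97 (SE 0.139, 95% interval -1.29 to -0.65, limma adjusted p = 0.00978), a level 1.96-fold lower. H3c14, its neighbour in the Hist2 cluster, read 10.72, 10.59 and 10.998 in Dhx9.1241, against 11.35, 11.57 and 11.58 in Rluc.713. Again the groups did not overlap, with a change of -0.73 (SE 0.108, interval -0.98 to -0.48, limma adjusted p = 0.0111). Both genes were lowest on Dhx9.1241 replicate 2, and both encode H3.2, a replication-dependent H3 protein. Neither was called without Dhx9.1241 replicate 1 (adjusted p of 0.0525 for H3c15 and 0.0624 for H3c14).

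H1f2, the gene of the linker histone H1.2, was at 10.33, 10.40 and 10.33 in Dhx9.1241 and at 10.95, 11.01 and 10.83 in Rluc.713. All Dhx9.1241 arrays were below all Rluc.713 arrays, and the change was -0.58 (SE 0.06, interval -0.72 to -0.44, limma adjusted p = 0.00254). H2bc21, a Hist2 gene of H2B, gave 7.86, 7.74 and 7.88 in Dhx9.1241, against 8.37, 8.40 and 8.33 in Rluc.713. Its change was -0.54 (SE 0.055, interval -0.67 to -0.41), and its adjusted p of 0.00215 in limma's test was the smallest among the 47. H2ac6, a Hist1 gene of H2A, was dim, at 6.46, 6.42 and 6.35 in Dhx9.1241 and 6.82, 6.87 and 6.78 in Rluc.713. It fell by 0.41 on the log2 scale (SE 0.053, interval -0.53 to -0.29, limma adjusted p = 0.00563). These 3 genes were called without any 1 of the 6 arrays.

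H2ac1 ran the other way, at 11.99, 11.91 and 11.87 in Dhx9.1241 and 11.35, 11.24 and 10.88 in Rluc.713. The groups did not overlap, and Rluc.713 replicate 3 was the lowest array. The log2 change was 0.76 (SE 0.11, interval 0.51 to 1.02, limma adjusted p = 0.0098), a level 1.70-fold higher. The call was lost without Dhx9.1241 replicate 1 (0.0576) and without replicate 3 (0.0502). H2bc1, which encodes the testis H2B variant TH2B and stands head to head with H2ac1, was at 10.03, 9.91 and 10.10 in Dhx9.1241 and 9.88, 9.94 and 9.71 in Rluc.713, overlapping between the groups, with a change of 0.17 that was not called (adjusted p = 0.358).

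**Figure D1:**
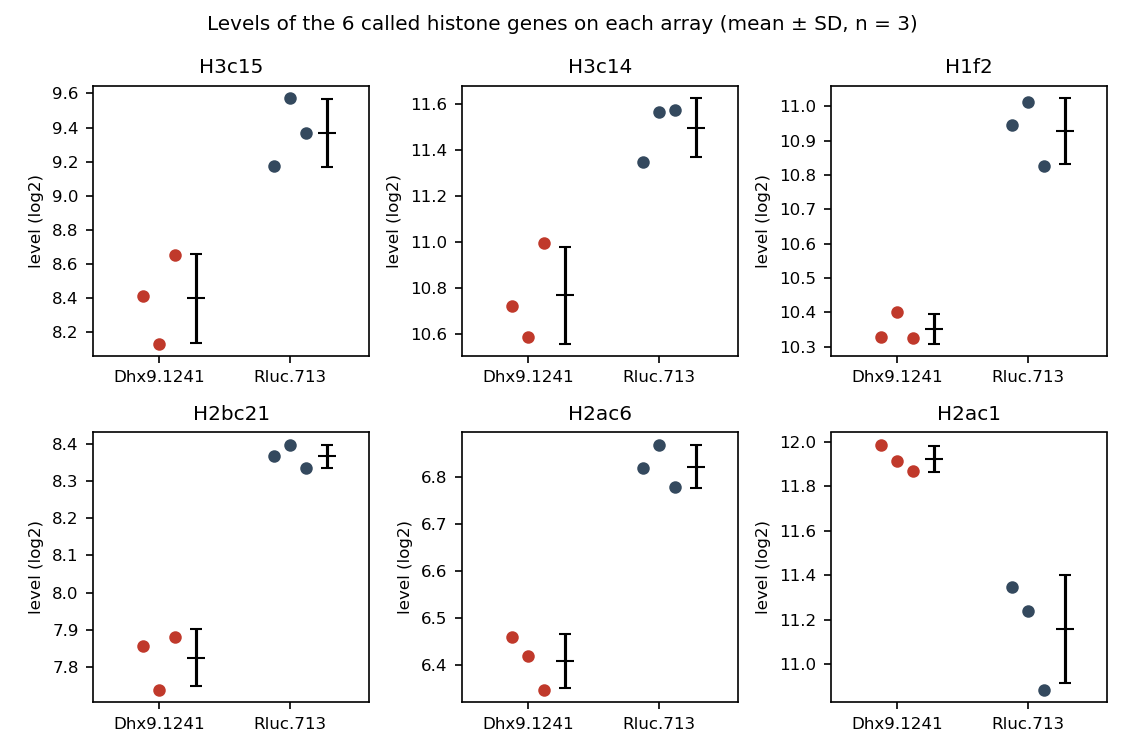
Levels of the 6 called genes on the log2 scale (vertical axes, each with its own range), 1 point per array, Dhx9.1241 in red and Rluc.713 in dark blue, with the mean ± SD of 3 arrays beside the points. The Dhx9.1241 points lie wholly below the Rluc.713 points in 5 panels and wholly above them in that of H2ac1.

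By class, the linker histone genes had the lowest median, -0.12, and all 5 were lower in the mean in Dhx9.1241. Only H1f2 was called among them. H1f3 (-0.19), H1f1 and H1f5 (both -0.12) and H1f4 (-0.05) were not, although the groups of H1f3, H1f4 and H1f5 did not overlap. H1f1, whose probe set was the brightest of the class, read 13.29, 13.31 and 13.12 in Dhx9.1241 and 13.39, 13.40 and 13.30 in Rluc.713, a small difference with overlap between the groups.

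The 10 H2A genes held the widest spread, with changes from -0.59 to 0.76 and a median of -0.02, whose sign turned in fits without 1 array. Beside the fall of H2ac6 and the rise of H2ac1, H2ac11 had the largest difference, at 7.15, 6.74 and 7.49 in Dhx9.1241 against 7.39, 7.71 and 8.04 in Rluc.713. Its replicates were far apart and the groups overlapped, so the change of -0.59 (SE 0.204) was not called (adjusted p = 0.216). H2ac21, of the Hist2 cluster, stood at -0.23 with groups that did not overlap (adjusted p = 0.208). The others lay near 0: H2ac8 at -0.06, H2ac22 at -0.03, H2ac20 at -0.01, H2ac13 at 0.00, H2ac15 at 0.01 and H2ac4 at 0.04. H2ac15 had the brightest H2A probe set, with 14.35, 14.34 and 14.32 in Dhx9.1241 and 14.34, 14.34 and 14.29 in Rluc.713.

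The 13 H2B genes had a median of 0.02, which also turned in sign, and H2bc21 alone was called. H2bc6 was next in its test, at 9.50, 9.42 and 9.61 in Dhx9.1241 and 9.74, 9.78 and 9.83 in Rluc.713. The groups did not overlap, and the change of -0.27 (SE 0.061) had an adjusted p of 0.058; it was called without Rluc.713 replicate 1 (0.0425) and under 6 of the 9 alternatives that kept all arrays. H2bc8 stood at -0.33 (adjusted p = 0.166) and H2bc18 at -0.11. The largest positive change was that of H2bc4, which read 10.78, 10.65 and 10.78 in Dhx9.1241 and 10.46, 10.69 and 10.47 in Rluc.713, an overlap through Rluc.713 replicate 2 and a change of 0.20 that was not called (adjusted p = 0.247). H2bc15, H2bc3, H2bc7, H2bc9, H2bc14, H2bc22 and H2bc11 lay between -0.03 and 0.04. The last, with the brightest H2B probe set, read 13.79, 13.71 and 13.83 in Dhx9.1241 and 13.65, 13.88 and 13.69 in Rluc.713.

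The 10 H3 genes had a median of -0.09. They encode H3.2 or H3.1, near-identical replication-dependent H3 proteins. Of the 6 H3.2 genes, H3c15 and H3c14 were called, while H3c7 (-0.12), H3c3 (-0.06), H3c4 (0.02) and H3c6 (0.03) were not. Of the 4 H3.1 genes none was called: H3c10 stood at -0.48, H3c8 at -0.13, H3c1 at -0.05 and H3c11 at -0.02. Both sets had a median of -0.09. H3c10 was dim and variable, at 6.75, 6.28 and 6.22 in Dhx9.1241 and 6.56, 7.10 and 7.04 in Rluc.713, with overlap between the groups (SE 0.173, adjusted p = 0.231). H3c6, the brightest H3 probe set, read 14.29, 14.32 and 14.32 in Dhx9.1241 and 14.28, 14.34 and 14.22 in Rluc.713.

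No H4 gene was called. The 9 changes had a median of -0.02, likewise of unstable sign, and lay between -0.07 (H4c8) and 0.08 (H4c9), and the 95% interval of each stayed between -0.20 and 0.19. At an unadjusted p under 0.05, which 5.63% of all genes passed as lower and 8.5% as higher, no H4 gene passed either, while 12 of the 47 members were lower and 2 higher. H4c8 read 8.49, 8.41 and 8.41 in Dhx9.1241 and 8.53, 8.51 and 8.48 in Rluc.713, and H4c9 read 9.98, 9.96 and 10.01 in Dhx9.1241 and 9.93, 9.91 and 9.88 in Rluc.713. The H4c9 groups did not overlap, but the distance between them was small. H4c4, with the brightest probe set of all members, stayed between 14.47 and 14.49 in Dhx9.1241 and between 14.45 and 14.48 in Rluc.713. H4c3 stood at -0.04, H4c6, H4c2 and H4c14 between -0.03 and -0.02, H4c11 at 0.02 and H4c1 at 0.03.

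**Figure D2:**
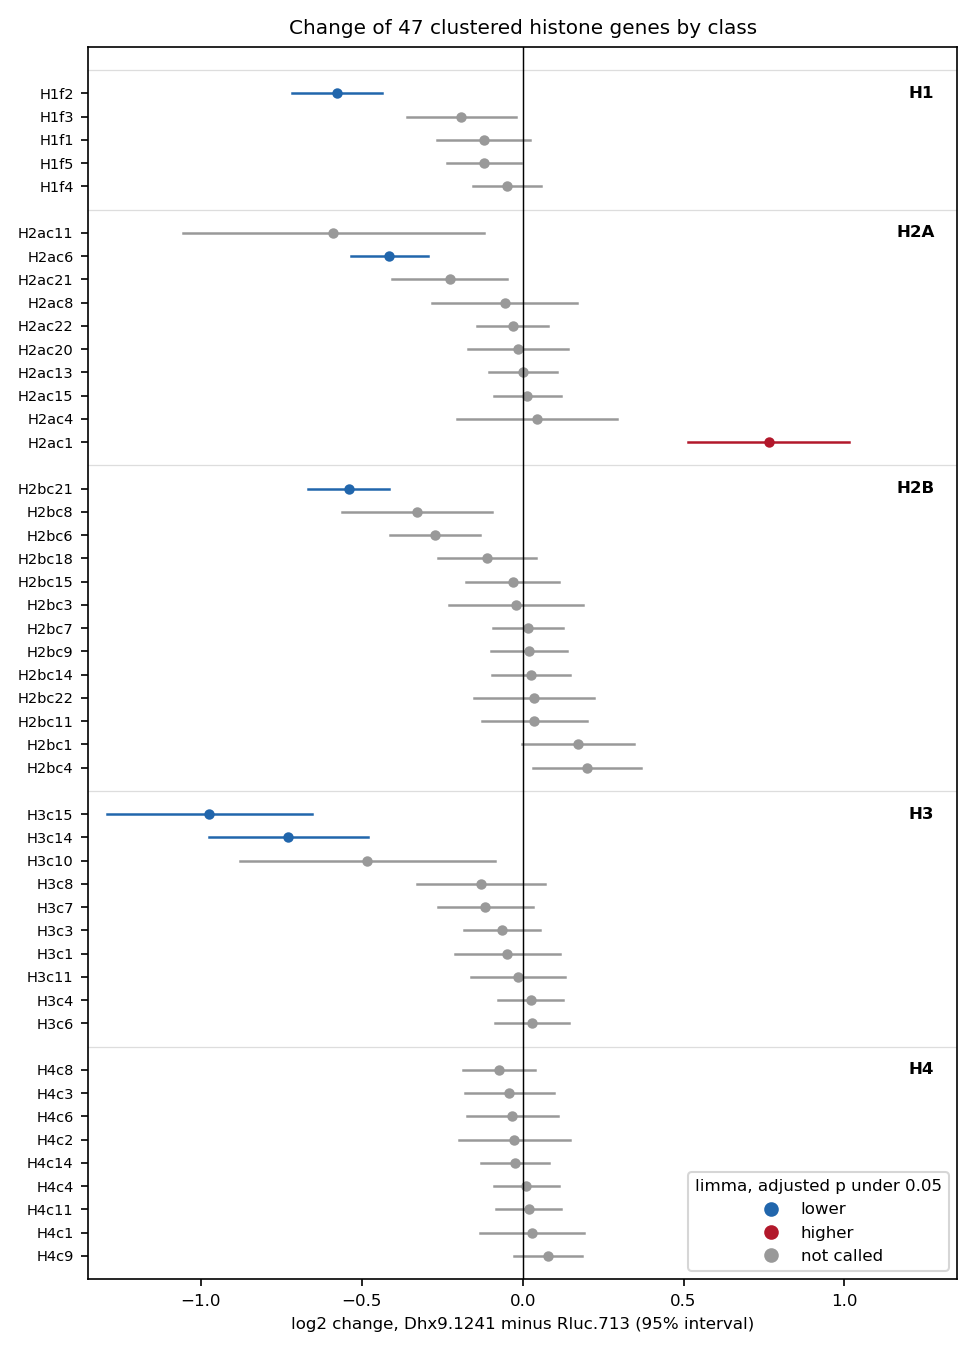
Log2 change, Dhx9.1241 minus Rluc.713 (horizontal axis), of the 47 clustered histone genes with the 95% interval of limma, grouped by class from H1 at the top to H4 at the bottom. Blue points are lower and red points higher at an adjusted p under 0.05, grey points were not called; the H4 points all lie between -0.07 and 0.08.

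Counting arrays without a model, 11 of the 47 genes had all Dhx9.1241 arrays below all Rluc.713 arrays (23.4%, against 8.51% of all genes) and 3 had them all above (6.38%, against 11.6%). The 5 genes that fell and H1f3, H1f4, H1f5, H2ac21, H2bc6 and H2bc8 made up the first set, and H2ac1, H3c4 and H4c9 the second. By sign alone, 30 changes were negative and 17 positive, against 8916 and 9858 over all genes. The share with all Dhx9.1241 arrays below differed with signal. At or above the members' median level, 12.49, it was 8.33% of the members and 21.2% of all genes. Below that level it was 39.1% and 8.06%. In the related lists described further on it was 18.4% for S phase, 20% for chaperone and 22.2% for transcription genes. For processing genes it was 11.8%, and for histone genes outside the rule 42.9%.

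All 6 called genes had probe sets in the dimmer part of the members' signal range. RMA levels of the members ran from 5.92 to 14.47, with 25 members above 12.23, the 95th percentile of all genes, and 7 below the median of all genes, 8.47. Of the 24 members at or above the members' own median level, 12.49, none was called, and their changes lay between -0.13 and 0.04; 1 of them, H1f5, was lower at an unadjusted p under 0.05. Of the 23 members below it, 6 were called and the changes ran from -0.97 to 0.76. Among all genes at or above 12.49, 13 of 642 were called (2.02%), with changes from -0.57 to 0.49, and among those below it 577 of 18142 (3.18%). The median SE was 0.052 for the brighter and 0.074 for the dimmer members. Whether bright probe sets were near the top of the scanner's range, or read several paralogs at a time, was not tested.

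**Figure D3:**
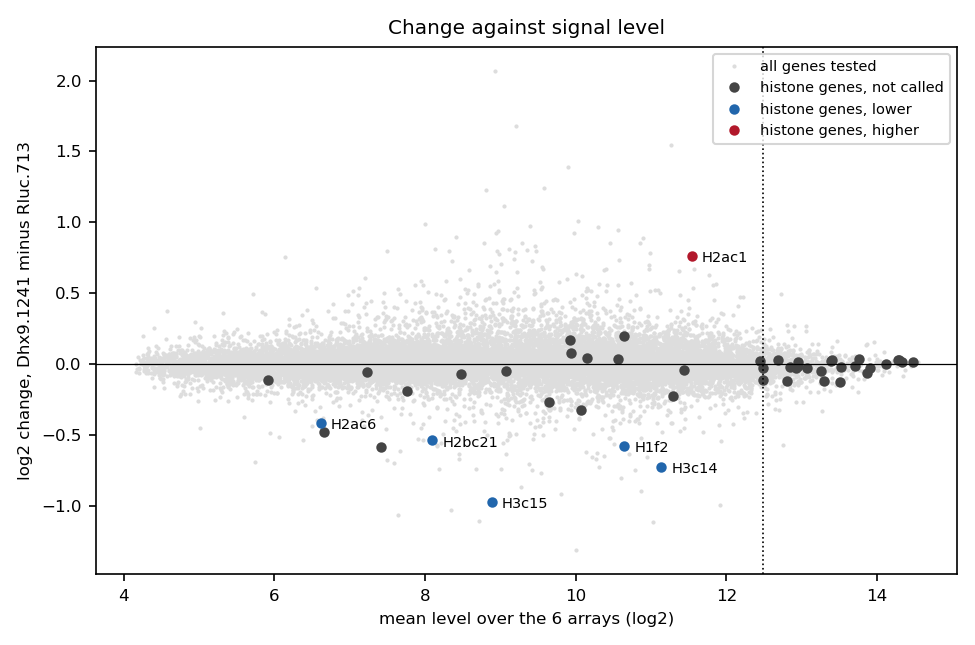
Log2 change, Dhx9.1241 minus Rluc.713 (vertical axis), against the mean level over the 6 arrays (horizontal axis, log2) for all genes (light grey) and the 47 histone genes (dark grey not called, blue lower, red higher). The dotted line is the members' median level, 12.49; all named points lie left of it.

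By cluster, all 7 Hist2 genes were lower in the mean in Dhx9.1241, with a median of -0.23. Of the 7, 3 were called (42.9%, against 3.14% of all genes), all of them lower. The 40 Hist1 genes had a median of -0.03 (-0.05 to 0.02 in fits without 1 array, against -0.28 to -0.15 for Hist2). Among them 2 were called lower (5%, against 1.07% of all genes) and 1 higher (2.5%, against 2.07%). In their order along chromosome 3 the Hist2 members were H2ac21 (-0.23), H2ac20 (-0.01), H2bc21 (-0.54), H3c15 (-0.97), H3c14 (-0.73), H4c14 (-0.02) and H2bc18 (-0.11). The 3 called members are thus consecutive among those measured, and the 95% intervals of H2ac20 and H4c14, on either side of them, were -0.17 to 0.14 and -0.13 to 0.08. Whether the probe sets of H3c15 and H3c14 read separate RNAs was not tested.

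The Hist1 genes lie in 2 stretches with 41 other protein-coding genes between them in the reference table. None of the 13 members in the first stretch was called (median 0.00), where H2ac11 and H3c10, both overlapping between groups, had the largest differences. Of the 27 in the second stretch, H2ac6 and H1f2 were lower and H2ac1 was higher (median -0.04). H2bc4, next to H2ac6 among the measured members, stood at 0.20 and was not called. Promoter windows of 5 pairs of members overlapped head to head: H2ac15 with H2bc15, H2ac22 with H2bc22, H2ac11 with H2bc11, H2ac8 with H2bc8 and H2ac1 with H2bc1. In none were both genes called, in 1 pair 1 gene was (H2ac1), and 2 of the 5 pairs had changes of the same sign. H2ac11 and H2bc11, for example, stood at -0.59 and 0.04. The 5 members without a promoter window, H2bc21 and H2bc4 among them, could not enter this count. The neighbours H2ac6 and H2bc4, and H2ac20 and H2bc21, were thus not assessed as pairs.

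**Figure D4:**
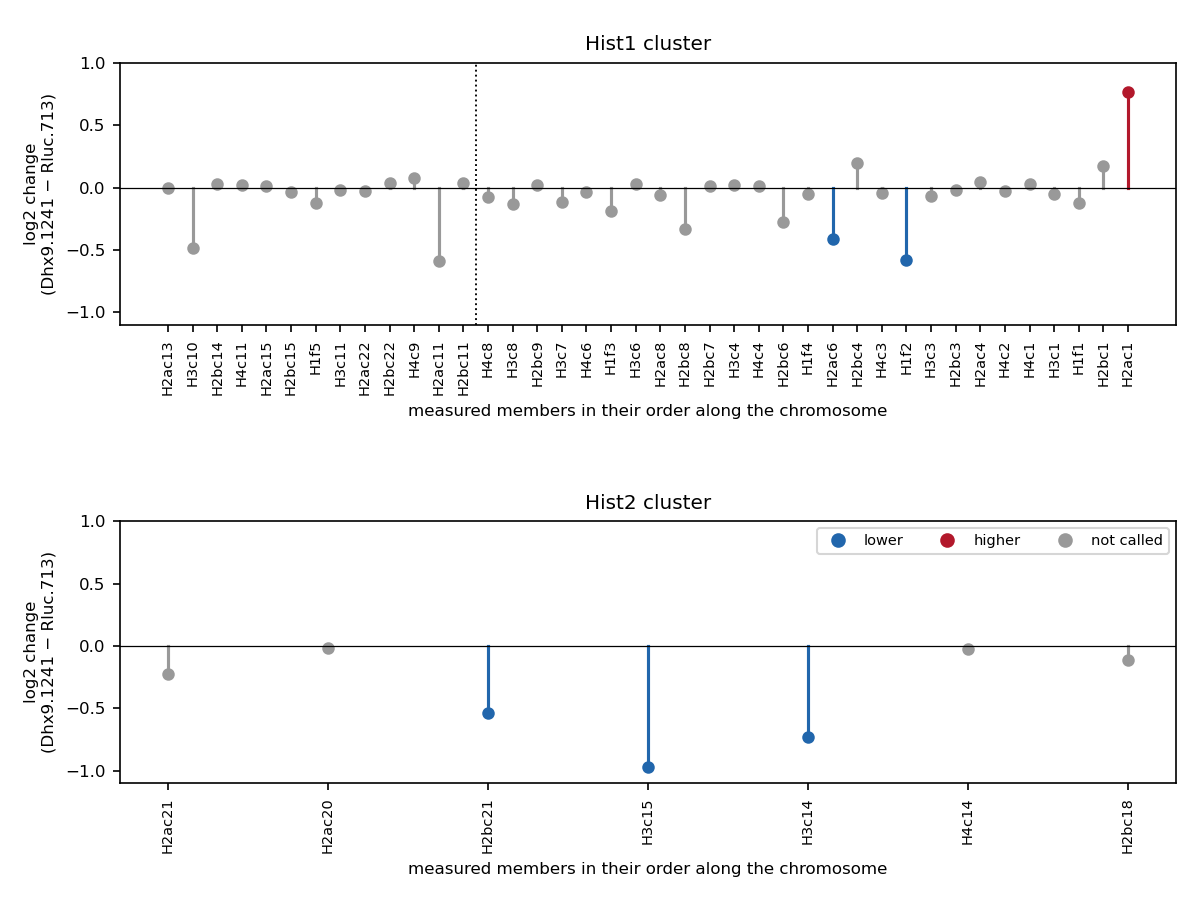
Log2 change, Dhx9.1241 minus Rluc.713 (vertical axes), of the 40 Hist1 genes (upper panel) and 7 Hist2 genes (lower panel) in their order along the chromosome; spacing is by rank, not distance, and the dotted line parts the 2 stretches of Hist1. Blue is lower, red higher and grey not called; the 3 blue Hist2 genes H2bc21, H3c15 and H3c14 are consecutive.

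Across the 6 arrays the members whose levels ran most like those of H3c15 were H3c14 (Pearson r 0.99), H2bc6 (0.97) and H2bc21 (0.97). Part of this is the difference between the hairpins; with each group's mean removed, r was 0.93, 0.81 and 0.81. By that measure H4c3 (0.95), H2bc8 and H4c6 (both 0.94), none of them called, lay closer to H3c15 than H3c14 did, and others lay closer than H2bc6 and H2bc21. These are descriptions over 6 arrays that share their normalization, with no test.

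Genes known to act on histone genes and histone proteins were examined beside them. Among 14 histone genes outside this rule, mostly genes of histone variants, 1 fell and 13 were not called, with a median of -0.05. The gene that fell was H3f3b, 1 of the genes of the replacement histone H3.3, at 12.37, 12.41 and 12.46 in Dhx9.1241 and 12.66, 12.63 and 12.63 in Rluc.713, a change of -0.22 (limma adjusted p = 0.0489). That call was lost in every fit without 1 array and in 3 of the other 9 alternatives. At an unadjusted p under 0.05 in limma's test, 5 of the 14 were lower and 0 higher, against 5.63% and 8.5% of all genes. Of 25 chaperone and chromatin assembly genes, Chaf1b, which encodes a subunit of the CAF-1 complex, fell to 10.90, 10.85 and 10.87 in Dhx9.1241, against 11.20, 11.21 and 11.04 in Rluc.713 (-0.27, limma adjusted p = 0.0494), and 24 were not called, with 5 of the 25 lower and 2 higher unadjusted. Leaving out 1 array at a time ended the Chaf1b call in 5 of 6 fits.

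None of 34 genes of histone pre-mRNA processing and decay was called (limma, median -0.01, with 4 lower at an unadjusted p under 0.05 and 1 higher). Over all genes 5.63% were lower and 8.5% higher at that unadjusted threshold, which also serves for the lists below. Slbp, the stem-loop binding protein gene, read 11.37, 11.39 and 11.44 in Dhx9.1241 and 11.40, 11.44 and 11.59 in Rluc.713, an overlap with a change of -0.08 (interval -0.22 to 0.06, adjusted p = 0.704). Zfp473, the gene of a zinc finger protein of the U7 processing complex, stood at 0.24 (adjusted p = 0.0541) and Snrpf, which encodes a small nuclear ribonucleoprotein subunit, at -0.23 (0.812). None of 18 genes of histone gene transcription was called either (median -0.03, with 3 lower and 1 higher unadjusted). Npat, the coactivator of histone transcription that cyclin E and CDK2 phosphorylate, read 11.05, 10.89 and 11.11 in Dhx9.1241 and 10.85, 11.07 and 10.96 in Rluc.713, with a change of 0.06 (interval -0.12 to 0.23). Cdk2 stood at -0.19 (adjusted p = 0.0862) and Ccne1 at 0.17 (0.133). Of 38 genes of S phase and DNA synthesis none was called (median -0.02, with 6 lower and 1 higher unadjusted); the clamp loader gene Rfc2 stood at -0.21 (adjusted p = 0.0503) and the helicase gene Mcm4 at -0.17. With a variance trend and robust estimation, 6.06% of all genes were called, 673 higher and 466 lower. The calls were then 2 of 34 processing, 4 of 18 transcription, 3 of 38 S phase, 4 of 25 chaperone and 3 of 14 other histone genes. All of these list calls were lower except that of 1 transcription gene, which was higher.

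**Figure D5:**
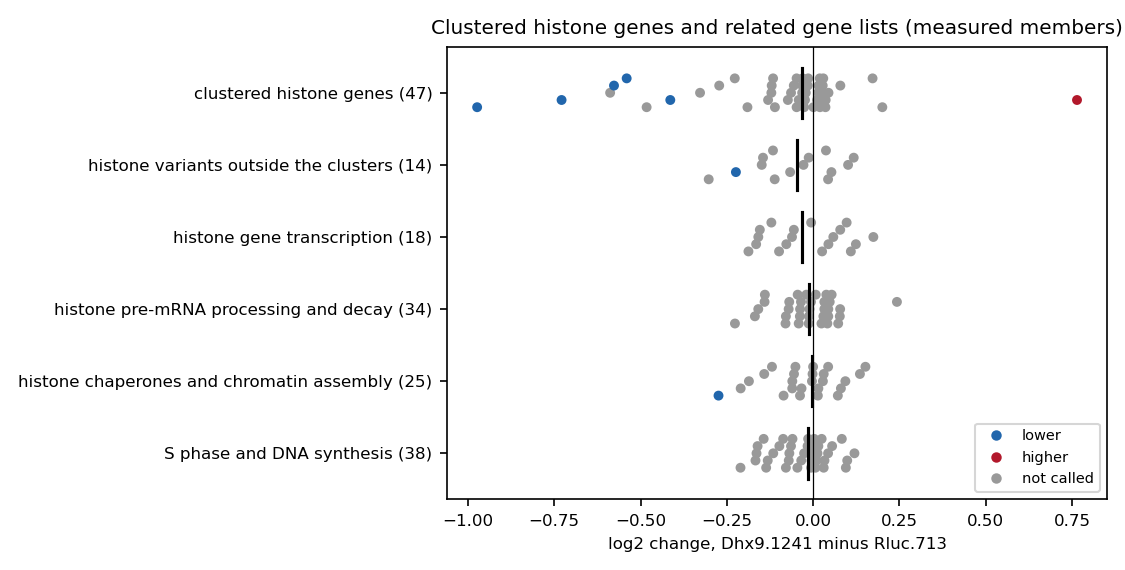
Log2 change, Dhx9.1241 minus Rluc.713 (horizontal axis), of every measured member of 6 gene sets, with the number measured in brackets and the set's median as a black bar; the vertical scatter within a row has no meaning. Blue is lower, red higher and grey not called, and the clustered histone genes, in the top row, reach from -0.97 to 0.76.

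The checks of the arrays bear on all these results. Dhx9 was lower in Dhx9.1241, at 11.42 ± 0.041 against 12.42 ± 0.063 in Rluc.713 (SD, n = 3 each; limma adjusted p = 0.000129), whereas Dhx29, the gene that the sample titles name, had a change of 0.04 (adjusted p = 0.857), so the arrays are called by their hairpins. Cd79a, a B cell receptor gene that marks the lineage, read 13.69 ± 0.07 and 13.80 ± 0.079. Among 13 B cell markers, Fcmr (-0.90, limma adjusted p = 0.000488) and Vpreb3 (-0.57, 0.000891) were called lower. The other 11, Cd79a among them, were not called, and 9 of the 13 changes were negative and 4 positive. Rluc.713 replicate 1 stood apart from the other Rluc.713 arrays on principal component 2 (16.7, against -4.81 and -5.29); without it all 6 called members were still called, with H2bc6 and H3c10 besides. Over all genes 1.07% were called lower and 2.07% higher, which serves for each marker list here. Of 14 myeloid markers 4 were lower and none higher, led by Lyz2 (-1.31). Their summed level, out of the log2 scale, was 5399 to 5645 in Dhx9.1241 and 7152 to 7551 in Rluc.713. Tyrobp made up 28.2% to 29.5% of that sum, and the other 13 summed to 3807 to 3980 in Dhx9.1241 and 5097 to 5421 in Rluc.713. The same sum over 13 B cell markers, of which 2 were lower, was 82214 to 85492 in Dhx9.1241 and 86531 to 92054 in Rluc.713, and 19 fibroblast markers, of which 1 was lower, gave 20550 to 21359 and 19850 to 20194. Vim made up 69% to 73.7% of the fibroblast sum; the other 18 markers summed to 5528 to 5665 in Dhx9.1241 and 5729 to 6262 in Rluc.713, and 12 of the 19 changes were negative. The 12 T and NK cell markers, none of them called, gave 6955 to 7427 and 7071 to 7282, of which Cd2 made up 70.6% to 74%; the other 11 summed to 1992 to 2037 in Dhx9.1241 and 1890 to 2077 in Rluc.713. No marker level was at 0, since RMA gives every probe set a positive value. Their part in the histone results was not tested, and in cultures of more than 1 cell type fewer cells of a type and less RNA per cell cannot be told apart.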

How the data were processed

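RNA of 6 cell samples was labelled with a 3′ in vitro transcription kit and hybridised to Affymetrix arrays, per the labels' protocols. The authors deposited log2 values, 1 per probe set and array, made by RMA per the submitters' processing notes; its version, the probe set definition and the genome build were not given in the sources used here. That the scale is log2 was read from the values, 3.97 to 14.57. RMA draws arrays together and can compress differences of very dim or very bright probe sets.

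Of 21212 probe sets, 18786 had 1 gene symbol, 6 had several and 2420 had none in the table used; only those with 1 symbol were tested. Symbols were checked through Entrez numbers in a RefSeq gene table (GRCm38.p6), used for names and gene order; promoters are RefSeq's. The brightest probe set stood for each of the 2 genes with more than 1, which left 18784 genes with no filter. Dhx9.1241 minus Rluc.713 was the contrast, fitted with limma 3.58.1 in R 4.3.3 with no covariate, two-sided, on all genes, and called at a Benjamini-Hochberg adjusted p under 0.05. Intervals are 95% intervals of that model. Members and lists were chosen with earlier results of these data known, so lists are described by counts and medians, with no test of a list.

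Named were all called members, the largest rise, largest fall and brightest probe set in each class, the called members of related lists or else the 2 with the largest change, and Dhx9, Dhx29, Slbp and Npat. Other members are named so that every member is accounted for. The split at the members' median level and the stretches of Hist1 were chosen after the data were seen. On simulated arrays of this comparison (18784 genes, 5 runs) the fit recovered 98% of genes raised by 1 and 87.2% of those raised by 0.5 on the log2 scale. For falls of 1 and 0.5 it recovered 99.2% and 90%, and 5.45% of calls were false. The simulation gave all arrays equal noise and drew each gene's noise from the variance model of the fit itself, whatever the gene's level. It therefore tried the fit under its own assumptions. Estimated weights of the real arrays ran from 0.268 (Rluc.713 replicate 1) to 2.006 (Rluc.713 replicate 2), so these rates need not hold for them. Alternatives were each array left out, a replicate block, 3 renormalizations, 2 filters on dim genes, a variance trend with robust estimation, array weights, all probe sets and a wider match by former names. Same-numbered arrays did not deviate together (correlations of -0.27, -0.34 and 0.24), so numbers were not used as pairs.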

Additional observations from a re-analysis of the deposited data

How the results depend on the processing

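All 6 called members kept their direction under all alternatives that tested them. H1f2, H2bc21 and H2ac6 kept their calls in every such fit, while H3c15, H3c14 and H2ac1 lost theirs in fits with an array left out, which have fewer arrays. The number of called members was 3 without Dhx9.1241 replicate 1 and at most 8, without Rluc.713 replicate 1, among the fits without 1 array. It was 10 with array weights, where H2ac21, H2bc6, H2bc8 and H3c10 were added, and within 1.5 times of 6 otherwise. H2ac6, or H2ac6 and H2bc21, left the test under the filters at the 25th percentile and the median, being dim. Over the fits without 1 array the medians of 4 sets turned in sign: H4 ran from -0.039 to 0.019 (above 0 without Dhx9.1241 replicate 2 or Rluc.713 replicate 2), H2A from -0.045 to 0.005 and Hist1 from -0.05 to 0.015 (both highest without Dhx9.1241 replicate 2), and H2B from -0.011 (without Rluc.713 replicate 1) to 0.032. The H2B median was also below 0 with arrays centred on their medians (-0.004) and with array weights (-0.029), and that of H2A was 0.001 without genes under the median level. H3 ran from -0.114 to -0.048, H1 from -0.154 to -0.102 and Hist2 from -0.277 to -0.153, all below 0; the cause was not tested.

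Over all genes the count of 590 called ranged from 205 without Dhx9.1241 replicate 1 to 896 without Rluc.713 replicate 1. It was 988 where genes below the median level were left out, 1139 with a variance trend and robust estimation, 1211 with array weights and 263 with the replicate block, where all 6 members were called. With the wider match by former names, 6 of 52 genes were called. The number of arrays limits the precision, and the spread between replicates that of H2ac11 and H3c10.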

Other observations

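Of the genes tested, 5 carry a former name of the Hist kind but a current symbol outside the rule, and none was called. The testis linker histone gene H1f6 had a log2 change of 0.10 (limma adjusted p = 0.751), the H2A gene H2aw -0.05 (0.773), the H2B gene H2bu2 -0.08 (0.571), the pseudogene H2bu1-ps -0.01 (0.995) and the H4 gene H4f16 -0.03 (0.92). The Dhx9.1241 and Rluc.713 groups overlapped in 4 of these, and H2bu2 was lower on all Dhx9.1241 arrays. H1f6 and H4f16 were also counted among the 14 histone genes outside the rule.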
